A study of Mus musculus with 2 samples.

Results

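Gkn3, Agr3, Smoc2, Igfbp4, Rgmb and Rnase1 code for secreted, endoplasmic reticulum or cell surface proteins and have been used as markers of crypt base stem cells. These 6 of the 31053 genes in the files were followed through the mouse jejunal epithelium. They were picked by symbol, with their levels in these libraries already known, so the levels and differences below describe them and test nothing. The jejunal cells had been sorted for GFP from mice carrying Lgr5-eGFP-IRES-CreER, an allele in which the Lgr5 locus drives a green fluorescent reporter and an inducible Cre. This allele is known to be active in patches of crypts, and GFP outlasts the transcript in daughter cells. Both groups carried this allele and were labelled female and 10 to 12 weeks old. One received an Fc control and the other an antagonist of FZD5 and FZD8, receptors for Wnt ligands, and the comparison asks how the sorted cells differ when these receptors are blocked. Each condition had 3 mice and 1 droplet library, whose cells cannot be assigned to single mice. The labels used here state neither the dose nor how long treatment lasted.

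Crypt base stem cells divide throughout life, and Wnt signals from Paneth cells and the surrounding stroma keep them in the stem cell state. When a Wnt ligand binds a Frizzled receptor, beta-catenin is stabilised and acts with TCF/LEF factors on genes such as Lgr5 and Axin2. The 6 genes code for proteins that work mostly outside the cell or at its membrane. Gkn3 is a gastrokine, a family of secreted BRICHOS-domain proteins first known from the stomach. Agr3 belongs to the anterior gradient proteins of the disulfide isomerase family, which act in the endoplasmic reticulum. Smoc2 is a matricellular protein of the SPARC family, Igfbp4 binds and sequesters insulin-like growth factors, and Rnase1 is a secreted ribonuclease of the pancreatic type. Rgmb is held at the surface by a lipid anchor, where it acts as a co-receptor for BMPs and binds neogenin.

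Since the genes were lower together, their promoter windows were searched for TCF/LEF cores, and the upstream sequence is shown for Gkn3 and Agr3, which had the widest differences over all cells. RefSeq (GRCm38.p6) gave windows from 250 bases before to 50 bases after the start site for 5 of the 6 genes, with 3 windows for Rgmb. The letters CTTTGA and CTTTGT were searched on both strands. One CTTTGT was found in a window of each of Gkn3, Agr3, Rgmb and Rnase1, none in that of Igfbp4, and no CTTTGA in any. Of all 32851 windows of this length, 31.2% held one of these motifs, so their presence in a window is common. The upstream parts of Gkn3, chr6:87388936-87389185 on the minus strand, and of Agr3, chr12:35925371-35925619 on the plus strand, read 5′ to 3′ as follows, with the match, which in both lies on the opposite strand, in capitals.
Gkn3: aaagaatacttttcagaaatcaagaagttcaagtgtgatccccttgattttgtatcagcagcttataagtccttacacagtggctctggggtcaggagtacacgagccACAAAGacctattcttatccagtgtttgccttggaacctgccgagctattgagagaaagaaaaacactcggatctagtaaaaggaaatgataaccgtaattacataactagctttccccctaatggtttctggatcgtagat
Agr3: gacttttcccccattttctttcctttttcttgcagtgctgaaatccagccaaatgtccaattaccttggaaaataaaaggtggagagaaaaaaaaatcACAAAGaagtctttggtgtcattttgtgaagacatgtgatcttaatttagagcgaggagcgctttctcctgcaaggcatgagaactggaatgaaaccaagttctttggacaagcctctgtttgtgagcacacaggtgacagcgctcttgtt

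The E-box CANCTG, the site type read by basic helix-loop-helix factors such as Ascl2, occurred 3 times in the Agr3 window, once in that of Igfbp4, once in a window of Rgmb and not in those of Gkn3 and Rnase1, against 51.4% of all windows. A match is a description of the letters only. In the GRCm38 annotation (GENCODE), Gkn3 lies on chromosome 6 from 87383256 to 87388935, with its family member Gkn2 as the nearest coding gene, 3759 bases away. Agr3 spans 35925620 to 35949736 of chromosome 12 and is followed by its paralog Agr2 after 43171 bases. Igfbp4 is on chromosome 11 from 99041244 to 99054392 and Rnase1 on chromosome 14 from 51144998 to 51146785. On chromosome 17 lie Smoc2, from 14279506 to 14404790, and Rgmb, from 15803188 to 15831039. Smoc2 overlaps an antisense transcript, 4930474M22Rik, whose reads can be told apart only by strand, and no source used here says how strand was counted.

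The control library held 67411637 UMIs (unique molecular identifiers, 1 for each captured transcript) in 12672 barcodes and the antagonist library 55810293 in 13085. Kept were barcodes with 500 or more genes and no more than 20% mitochondrial UMIs, 11263 and 11019 of them, with medians of 4478 and 2732 UMIs. The libraries shared 145 barcodes, 67 of them among kept cells. Although both libraries were labelled female, Xist was at 1.33 CPM (UMIs per 1000000 UMIs of a library or class of cells) in the control and 512 in the antagonist library, and 4 Y-linked genes summed to 106 and 5.60 CPM. The libraries therefore differ in a sex-linked way that cannot be told apart from the treatment. A single library stands for each condition, so the differences have no replicate check and were not tested, and the 95% intervals given throughout cover counting error alone. Markers of fibroblasts (4 and 0 UMIs), endothelium (34 and 19) and smooth muscle (4 and 3) were near 0 in both libraries, and the B and plasma cell list summed to 31.3 and 3.77 CPM. Their part in the results was not tested.

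Over all kept cells each of the 6 genes was lower in the antagonist library. Gkn3 was at 146 CPM in the control and 17.1 in the antagonist library, 8.54-fold lower (7.98 to 9.14). Agr3, at 52.8 and 6.15 CPM, was 8.59-fold lower (7.68 to 9.64). These were the widest gaps of the 6, and their intervals overlap. Igfbp4, at 81.8 and 14.7 CPM, was 5.57-fold lower (5.17 to 6.01). Rgmb, the surface co-receptor, was at 119.7 and 23.2 CPM, 5.15-fold lower (4.85 to 5.47). Rnase1 went from 165 to 58.4 CPM, 2.83-fold lower (2.72 to 2.95). Smoc2 differed least, with 124 CPM in the control and 62.9 in the antagonist library, 1.98-fold lower (1.90 to 2.06). At least 2-fold lower were 5 of the 6, against 8.83% of the 13757 genes with 20 or more UMIs. The median log2 ratio was -2.42 over the 6 and -0.15 over all these genes. The nearest to that fold were Smoc2, outside it, and Rnase1, inside it with its whole interval. In a sum over cells, fewer cells of a type and less RNA per cell cannot be told apart.

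**Figure D1:**
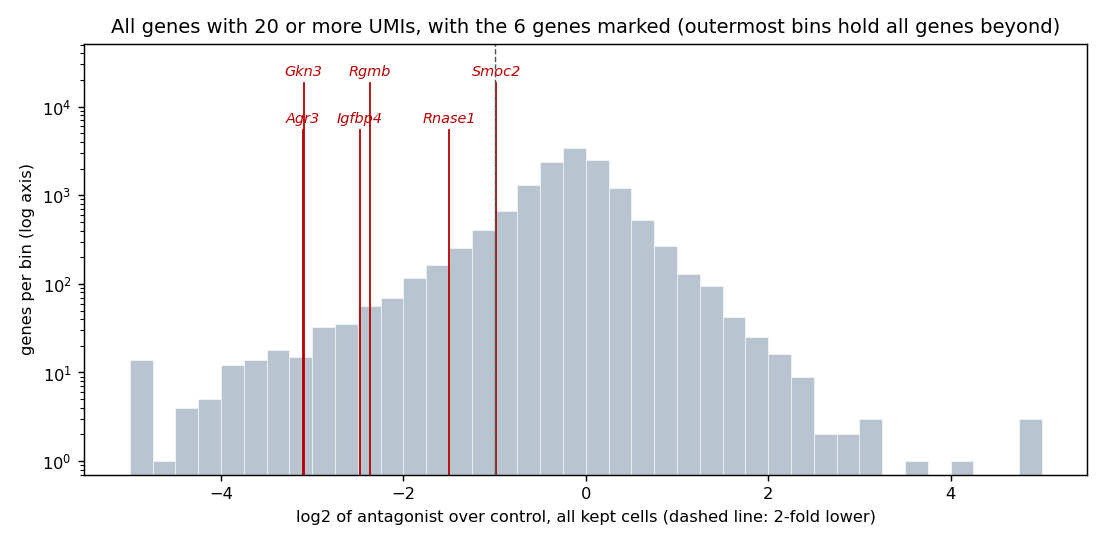
Histogram of the log2 ratio of antagonist over control in all kept cells, for the 13757 genes with 20 or more UMIs (x axis, log2; y axis, genes per bin of 0.25, log axis; the outermost bins hold all genes beyond them). Red lines mark the 6 genes, of which 5 lie left of the dashed line at 2-fold lower and Smoc2 on it, at -0.98.

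The cells were then sorted into gates, that is, classes set by how many markers of a cell type a cell showed and how many UMIs they held. The gates were goblet, Paneth, tuft, enteroendocrine, enterocyte and mitotic. The other cells were split into Lgr5-detected (1 or more Lgr5 UMIs) and remaining undifferentiated cells. Lgr5-detected cells numbered 2259 in the control and 95 in the antagonist library, mitotic cells 2119 and 2542, and remaining cells 6067 and 7133. The goblet gate held 244 and 338 cells, the Paneth gate 56 and 236, the tuft gate 240 and 242, the enteroendocrine gate 59 and 60, and the enterocyte gate 166 and 342. Defining markers were high in their gates, such as Muc2 at 1957 and 2447 CPM in goblet cells and Chga at 3575 and 2892 CPM in enteroendocrine cells. By fold over other gates, the control mitotic gate was led by the immunoglobulin transcripts Ighm and Igkc, whose part in its values was not tested. In the antagonist tuft gate 0 of the 10 leading genes were on the tuft list, although Dclk1 was at 1069 CPM there. The Paneth gates were unlike in depth, with medians of 49700.5 and 2801 UMIs per cell. A further 53 and 31 cells passed several differentiated gates and were left out, of which 48 and 23 were both goblet and Paneth.

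Gkn3 was highest where Lgr5 was detected. In the control library it stood at 246 CPM (238 to 254) in Lgr5-detected cells, 156 (151 to 160) in remaining cells and 116 (111 to 122) in mitotic cells. It was lower in enteroendocrine (59.6), tuft (44.2) and goblet cells (42.1), whose intervals overlap, then in enterocytes (19.0), and lowest in Paneth cells, at 8.15 CPM. The antagonist library gave 23.9 CPM (15.4 to 35.2, from 25 UMIs) in Lgr5-detected, 19.6 (18.0 to 21.3) in remaining and 16.7 (14.9 to 18.6) in mitotic cells. As these intervals overlap, whether the step between the gates was narrower than in the control is not settled. The levels in these gates were 10.3-fold (6.97 to 15.9), 7.92-fold (7.25 to 8.67) and 6.98-fold (6.20 to 7.88) lower than in the control. Among mature cells, goblet cells had 9.72 CPM, 4.33-fold lower (2.42 to 8.43), and enterocytes 6.15 CPM, 3.09-fold lower (1.47 to 7.10). The tuft and enteroendocrine gates of the antagonist library each held 1 Gkn3 UMI, against 59 and 20 in the control, with ratios of antagonist over control of 0.037 (0.00093 to 0.22) and 0.096 (0.0023 to 0.60).

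Agr3 split the gates differently. Control levels were 82.8 CPM (78.0 to 87.8) in Lgr5-detected cells, 53.0 (50.3 to 55.8) in remaining cells and 50.8 (47.4 to 54.5) in mitotic cells, the last 2 with overlapping intervals. Enteroendocrine cells, the hormone-secreting cells of the epithelium, were as high, at 71.5 CPM (45.8 to 106), and goblet and tuft cells had 21.1 and 20.99 CPM. In the antagonist library Agr3 was at 8.59 CPM in Lgr5-detected, 6.76 in remaining and 4.84 in mitotic cells, 9.64-fold (5.06 to 21.1), 7.84-fold (6.74 to 9.17) and 10.5-fold (8.47 to 13.1) lower. In enteroendocrine cells it was at 69.0 CPM, from 12 UMIs against 24 in the control, a ratio of 0.96 with an interval from 0.44 to 2.01. In goblet cells it was at 15.7 CPM, a ratio of 0.75 (0.42 to 1.27). The upper ends of the ratio in undifferentiated gates were 0.20, 0.15 and 0.12, below the lower ends in enteroendocrine and goblet cells. The ratio of Agr3 was thus closer to 1 in these 2 secretory gates than in the undifferentiated ones, with intervals that do not overlap. This depends on the gating for goblet cells, where the log2 ratio of Agr3 was -0.42 here, -1.57 with looser and 0.48 with stricter gates. With looser gates that of Lgr5-detected cells was -1.47, so the order does not hold there. A 2-fold difference in enteroendocrine cells lies inside its interval there.

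The paralog Agr2, which goblet cells need to fold mucins, was distributed otherwise. It stood at 15404 and 18082 CPM in goblet cells of the control and antagonist libraries, and at 733 and 857 CPM over all kept cells. In remaining undifferentiated cells Agr2 was higher in the antagonist library, at 428 against 191 CPM. Of the other disulfide isomerases, Txndc12 (44.2 and 33.2 CPM) and Pdia6 (158 and 183 CPM) had the lowest ratios, and P4hb (193 and 258 CPM) and Pdia4 (62.4 and 87.4 CPM) the highest. None of the list's 6 measured genes besides Agr3 was 2-fold higher or lower, against 8.83% of all genes 2-fold lower. The share of all genes 2-fold higher is not given, here or for the lists below. The median log2 ratio of the 6 was 0.25, against -0.15 over all genes.

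Smoc2 was spread most evenly over the undifferentiated gates. In the control library it was at 165 CPM (158 to 172) in Lgr5-detected cells, 133 (128 to 139) in mitotic and 127 (123 to 132) in remaining cells, the last 2 with overlapping intervals. Enteroendocrine cells had 113 CPM, goblet cells 69.3, tuft cells 67.5, enterocytes 19.7 and Paneth cells 13.1. The antagonist library gave 73.5, 70.0 and 65.1 CPM in the Lgr5-detected, mitotic and remaining gates, whose intervals overlap, 2.24-fold (1.79 to 2.85), 1.90-fold (1.78 to 2.04) and 1.96-fold (1.85 to 2.07) lower. Goblet cells were 1.52-fold (1.12 to 2.08) lower, tuft cells 1.70-fold (1.07 to 2.79), enteroendocrine cells 2.19-fold (1.04 to 5.15) and enterocytes 2.13-fold (1.12 to 4.25). Paneth cells had Smoc2 at 19.8 CPM after the antagonist, and their ratio was 1.51 (0.92 to 2.47), the only one of the 48 pairs of gene and gate above 1. The direction there depends on the scaling, since the median log2 ratio of all genes in that gate was 1.29, and with this median set to 0 the log2 ratio of Smoc2 was -0.69. Besides Smoc2, its list held 2 genes with 20 or more UMIs, both at least 2-fold lower: Smoc1, the other SMOC gene, with 33 and 5 UMIs, and Fstl1, a secreted relative, at 10.3 and 0.847 CPM. Of all genes, 8.83% were at least 2-fold lower.

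Igfbp4 had the order of Gkn3 in the undifferentiated gates. Control cells held 117 CPM (111 to 123) in the Lgr5-detected, 89.6 (86.1 to 93.2) in the remaining and 76.5 (72.2 to 80.9) in the mitotic gate, and less in enteroendocrine (47.7), goblet (32.9) and tuft cells (28.5). The antagonist library had 27.7 CPM, 16.5 and 14.0 in the first 3 gates, 4.22-fold (2.92 to 6.32), 5.44-fold (4.93 to 6.02) and 5.46-fold (4.78 to 6.25) lower. Goblet cells were 3.38-fold lower (1.86 to 6.65), and tuft cells 2.87-fold (1.21 to 8.32). In enteroendocrine cells no Igfbp4 UMI was found in the antagonist library, against 16 in the control, at least 2.76-fold lower when 3 counts are set for 0 over the gate. It was the only member of its family with 20 or more UMIs. Igfbp1, Igfbp2, Igfbp3, Igfbp5, Igfbp6 and Igfbp7 had 7 or fewer UMIs in each library. The ligands Igf1 and Igf2 had 0 UMIs in the control and 0 and 1 in the antagonist library. The receptors Igf1r and Insr were at 45.1 and 26.2 CPM and at 47.0 and 30.4 CPM, and Irs1, an adaptor of both, had 104 and 22 UMIs. Igf2r, the receptor that clears IGF2, was at 41.2 and 41.6 CPM. Of the 6 measured genes of the IGF list besides Igfbp4, 1 was at least 2-fold lower, against 8.83% of all genes, and 0 higher. Their median log2 ratio was -0.48.

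Rgmb was at 174 CPM (167 to 181) in Lgr5-detected, 126 (121 to 132) in mitotic and 117 (113 to 121) in remaining control cells. Enteroendocrine cells had 95.3 CPM (65.2 to 135), overlapping with those last 2, and tuft (54.0) and goblet cells (50.01) less. In the antagonist library Rgmb was at 39.1 CPM, 23.6 and 23.8 in the Lgr5-detected, mitotic and remaining gates, 4.45-fold (3.27 to 6.22), 5.34-fold (4.82 to 5.92) and 4.92-fold (4.53 to 5.36) lower. Tuft cells were 3.63-fold lower (1.81 to 8.26) and goblet cells 1.97-fold (1.33 to 2.98). The enteroendocrine ratio was 0.60 with an interval from 0.26 to 1.26, and that in the Paneth gate 0.62 (0.37 to 1.02). Rgma had 11 and 4 UMIs, and the third member of the family, listed under its older symbol Hfe2, had 0. Neogenin (Neo1), the receptor that Rgmb binds, was at 27.2 and 19.6 CPM. Of the 16 measured genes of the BMP and RGM list besides Rgmb, 1 was at least 2-fold lower, against 8.83% of all genes, and 1 higher. Their median log2 ratio was -0.06. Smad9, a BMP signal transducer, was the lower one, with 39 and 4 UMIs, and Bmp2, a ligand, the higher one, with 3.78 and 9.44 CPM. Smad5, which transmits BMP signals, was at 21.9 and 14.2 CPM. Smad7, an inhibitor of these signals, was at 20.8 and 23.1 CPM, and Id3, a direct target of them, at 61.3 and 74.1 CPM.

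**Figure D2:**
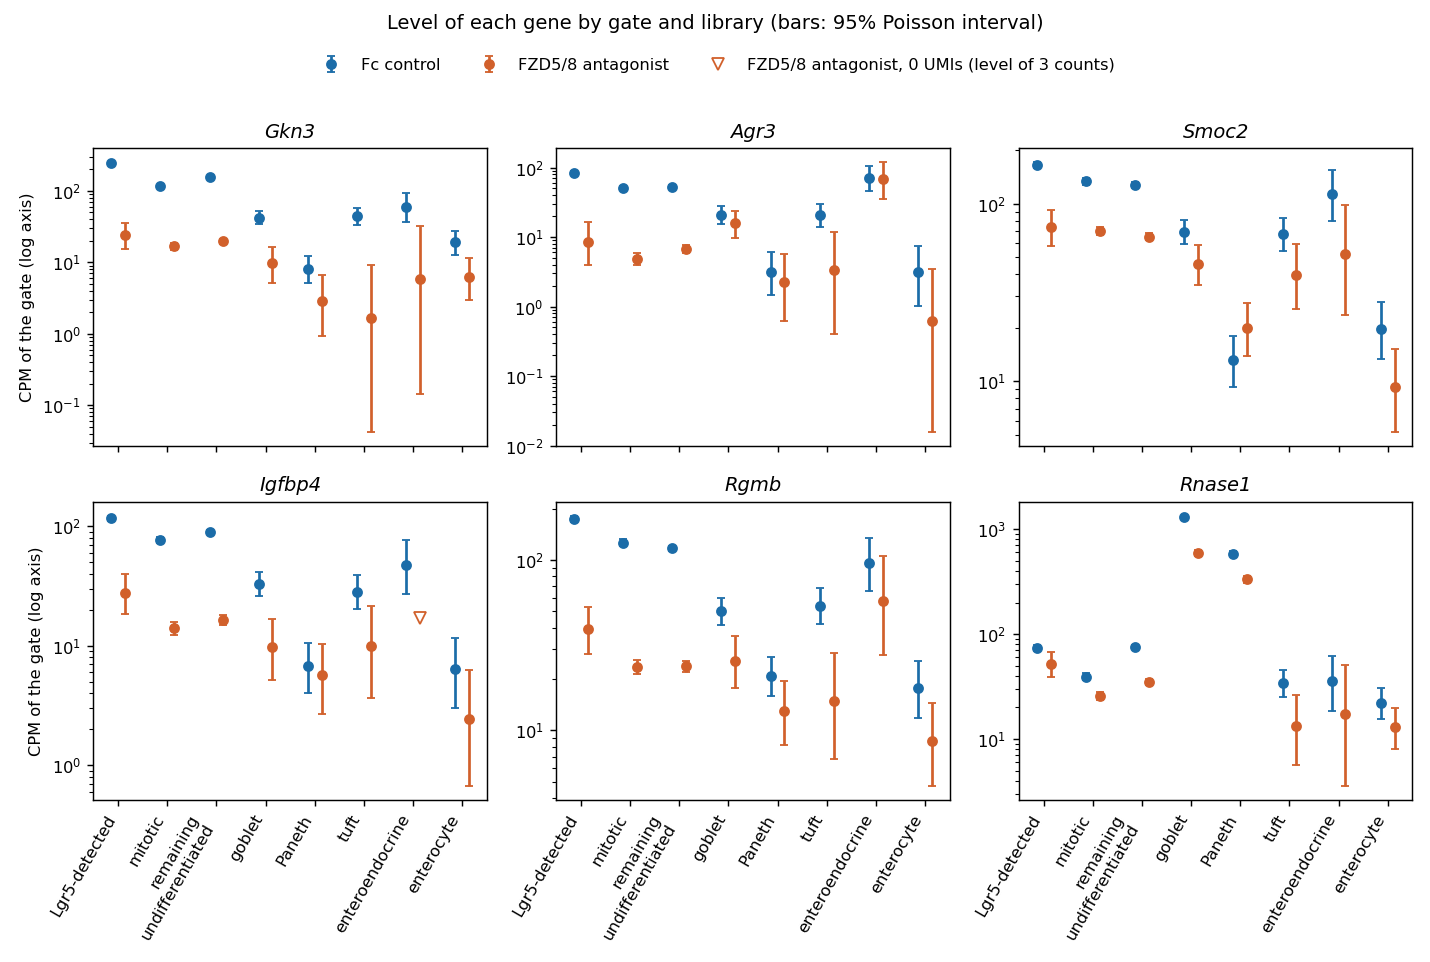
Level of each gene (y axis, CPM of the gate's UMIs, log axis, scaled per panel) in the 8 gates (x axis) of the Fc control (blue) and FZD5/8 antagonist (orange) libraries, with 95% Poisson intervals; the open triangle is a gate with 0 UMIs drawn at the level of 3 counts. Control points lie above antagonist points in the undifferentiated gates, Agr3 meets in enteroendocrine cells (71.5 and 69.0 CPM), and Rnase1 peaks in goblet cells.

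Rnase1 was highest in goblet and Paneth cells, not in Lgr5-detected cells, in both libraries. It was at 1296 CPM (1249 to 1343) in goblet and 586 CPM (558 to 615) in Paneth cells of the control, and at 73.2 in Lgr5-detected, 74.7 in remaining and 39.3 in mitotic cells, the first 2 of these with overlapping intervals. The 48 control cells that passed both the goblet and the Paneth gate, 0.426% of kept cells with a median of 19648.5 UMIs, were at 2419.8 CPM and held 23.5% of all Rnase1 UMIs. Goblet cells held another 27.0% and Paneth cells 15.1%. The control goblet gate also held Paneth markers, with Mmp7 at 980 CPM against 819 in the Paneth gate, and Lyz1 at 710 against 10757 CPM. Their part in the level of Rnase1 there was not tested. The 1% of control cells with most Rnase1 held 56.8% of its UMIs and the highest cell 254 of them, whereas that share was 12.4% for Gkn3 and 7.72% for Smoc2. No doublet caller was run, so whether a cell of both gates was 1 cell or 2 was not tested.

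In the antagonist library cells of both gates, goblet and Paneth cells were again the highest for Rnase1, at lower levels. Goblet cells were at 591 CPM, 2.19-fold lower (2.03 to 2.37), Paneth cells at 332, 1.77-fold lower (1.61 to 1.94), and cells of both gates at 1083, 2.24-fold lower (1.94 to 2.58). Lgr5-detected cells were at 51.5 CPM, 1.42-fold lower (1.08 to 1.91), mitotic cells at 26.0, 1.51-fold lower (1.34 to 1.71), and remaining cells at 35.2, 2.12-fold lower (1.96 to 2.29). Several of these values depend on depth, gating or scaling. After thinning to 3000 UMIs the log2 ratio was -2.77 in Lgr5-detected cells (-0.51 unthinned), where only 1 of 26 antagonist cells held Rnase1. It was -1.73 in remaining cells (-1.08) and -1.38 over all cells (-1.50). With stricter gates that of mitotic cells was -2.39 (-0.60 otherwise), and with looser gates that of goblet cells was -2.26 (-1.13 otherwise). In the Paneth gate it was -2.11 with the median log2 ratio of all genes set to 0 (-0.82 otherwise), a scaling chosen after seeing the data. The cells of both gates were fewer in the antagonist library, 23 against 48. Within the ribonuclease family, Rnase4 was at 158 and 65.6 CPM over all cells and Ang at 52.7 and 24.8. Ang4, a Paneth cell antimicrobial ribonuclease, was at 3869.7 and 2250.4 CPM in Paneth cells and at 253 and 161 CPM overall. It is among the markers that set the Paneth gate, so its level there is partly fixed by the gating. All 4 measured genes of the ribonuclease list besides Rnase1 (Rnase4, Ang, Ang4 and Rnh1) were lower, with a median log2 ratio of -0.87. Of these, 2 were at least 2-fold lower, against 8.83% of all genes, whose median was -0.15. The inhibitor Rnh1, which binds these enzymes inside the cell, was at 80.0 and 68.9 CPM. Rnase4 and Ang share a locus, and reads could be split between them.

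Read against all genes in each gate, the counts were as follows. In Lgr5-detected cells 5 of the 6 genes were at least 2-fold lower, against 12.8% of all genes tested there. For mitotic cells the count was 4 of 6 against 6.27%, and for remaining cells 5 of 6 against 8.21%. Goblet cells had 3 of 6 against 2.76%, tuft cells 5 of 6 against 4.23%, and the Paneth gate 1 of the 5 with 20 or more UMIs against 0.673%. Of the 4 genes with that many UMIs, 2 were called in enteroendocrine cells, against 5.26%, and 3 in enterocytes, against 2.22%. Of the 48 ratios of gene and gate, 47 were below 1 and 37 had an interval wholly below 1. These are the same 6 genes repeated over gates of the same libraries. The share of all genes with a ratio below 1 was not counted by gate. All genes also leaned lower in undifferentiated gates, with median log2 ratios of -0.19 in Lgr5-detected, -0.14 in mitotic and -0.18 in remaining cells. That median was -0.02 in goblet cells, -0.01 in tuft, enteroendocrine and enterocyte cells, and 1.29 in the Paneth gate. The members passed the UMI limit mostly through the control library, so these counts are given for description.

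**Figure D3:**
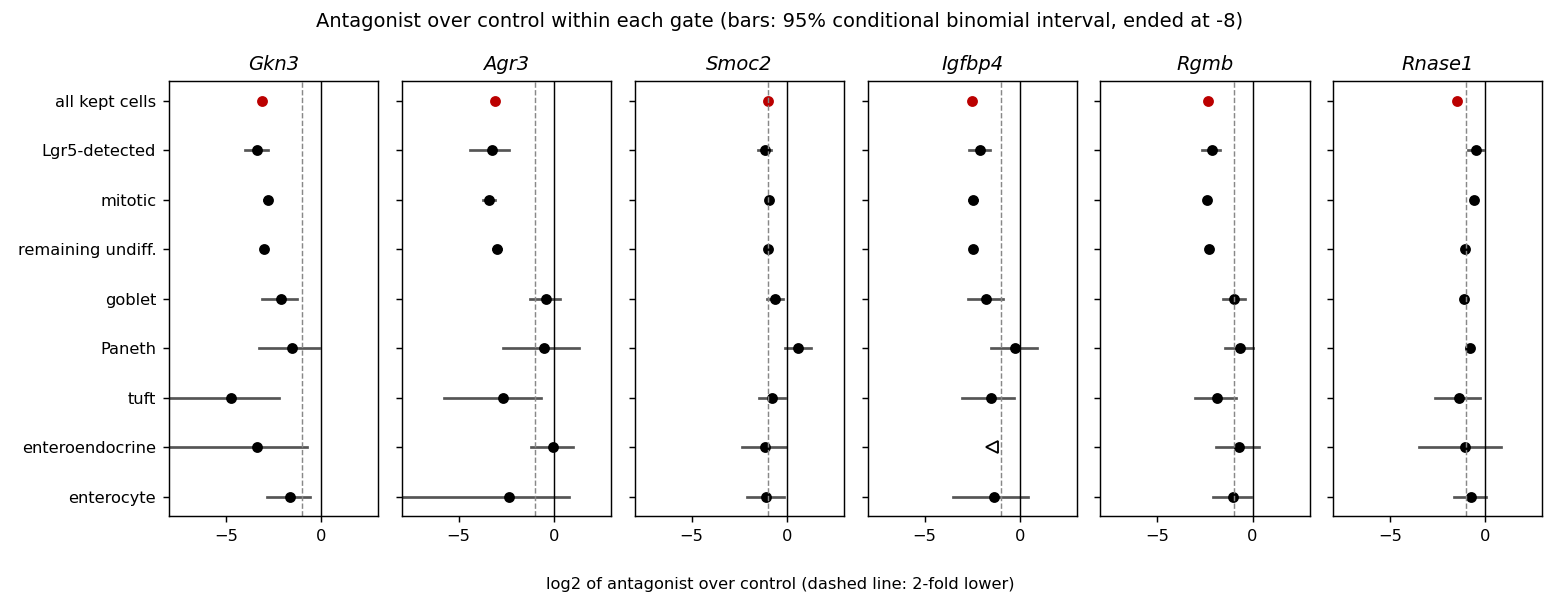
Log2 ratio of antagonist over control (x axis) for each of the 6 genes (panels) in all kept cells (red) and in each gate (black), with 95% intervals ended at the axis limit; the open triangle is a limit from 3 counts. Most points lie left of the dashed line at 2-fold lower for Gkn3 and Igfbp4, near it for Smoc2, and Agr3 lies near 0 in enteroendocrine cells (-0.05).

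The gates compared were not alike in other transcripts. Markers of mature types were higher in undifferentiated cells of the antagonist library: the goblet list summed to 517 and 2996 CPM (8 of 8 markers higher), the Paneth list to 7270.4 and 17248 (13 of 13), the enterocyte list to 1305 and 3597 (12 of 13), the tuft list to 177 and 232 (11 of 12) and the enteroendocrine list to 14.4 and 53.2 (12 of 13). In the 95 Lgr5-detected cells of the antagonist library the goblet list reached 5227 CPM, against 324 in the control, and Olfm4, a secreted glycoprotein of crypt cells, was at 672 against 3372 CPM. Their part in the differences of the 6 genes was not tested.

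Inside the control library, the level of the genes was then set against Lgr5 itself. Lgr5-detected cells were 1.58-fold (1.51 to 1.65) above remaining cells for Gkn3, 1.56-fold (1.44 to 1.69) for Agr3 and 1.49-fold (1.41 to 1.57) for Rgmb. Igfbp4 and Smoc2 each had 1.30-fold, with intervals from 1.22 to 1.39 and from 1.23 to 1.37, and Rnase1 0.98-fold (0.91 to 1.06). At least 1.5-fold higher were 2 of the 6, against 3.07% of all genes. Among the 95 Lgr5-detected cells of the antagonist library, Igfbp4 was 1.68-fold (1.11 to 2.45) and Rgmb 1.65-fold (1.17 to 2.26) above remaining cells, so 2 of the 6 passed, against 11.5% of all genes. For Gkn3, Agr3 and Smoc2 the ratios there were 1.22 (0.78 to 1.81), 1.27 (0.57 to 2.46) and 1.13 (0.89 to 1.42). Rnase1 had 1.46 (1.09 to 1.92), unlike in the control library, where its interval spans 1. These ratios are not thinned, and this order was not seen at equal depth. At 3000 UMIs per cell Rnase1 was in 3.85% (0.0973 to 19.6) of 26 Lgr5-detected antagonist cells. In the 2792 remaining ones it was in 6.34% (5.46 to 7.31), and the intervals overlap.

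Cells with more UMIs show Lgr5 more readily, so undifferentiated non-mitotic control cells were thinned to 3000 UMIs each and split by Lgr5 UMIs. With 0, 1, 2 and 3 or more Lgr5 UMIs (4136, 835, 163 and 43 cells), Gkn3 was at 195, 260.3, 311 and 411 CPM. Agr3 was at 61.5, 83.4, 102 and 178 CPM, and Igfbp4 at 94.4, 127, 145 and 178 CPM. Smoc2 went from 135 CPM over 182 and 223 to 225, and Rgmb from 122 over 169 to 259.7 and then 186, where the last interval was 119 to 277. For these 5 genes the cells without Lgr5 lay lowest, and cells with 1 Lgr5 UMI had intervals above those without. Rnase1 stood at 81.5, 83.4, 108 and 93.02 CPM, with intervals that overlap between neighbouring classes.

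**Figure D4:**
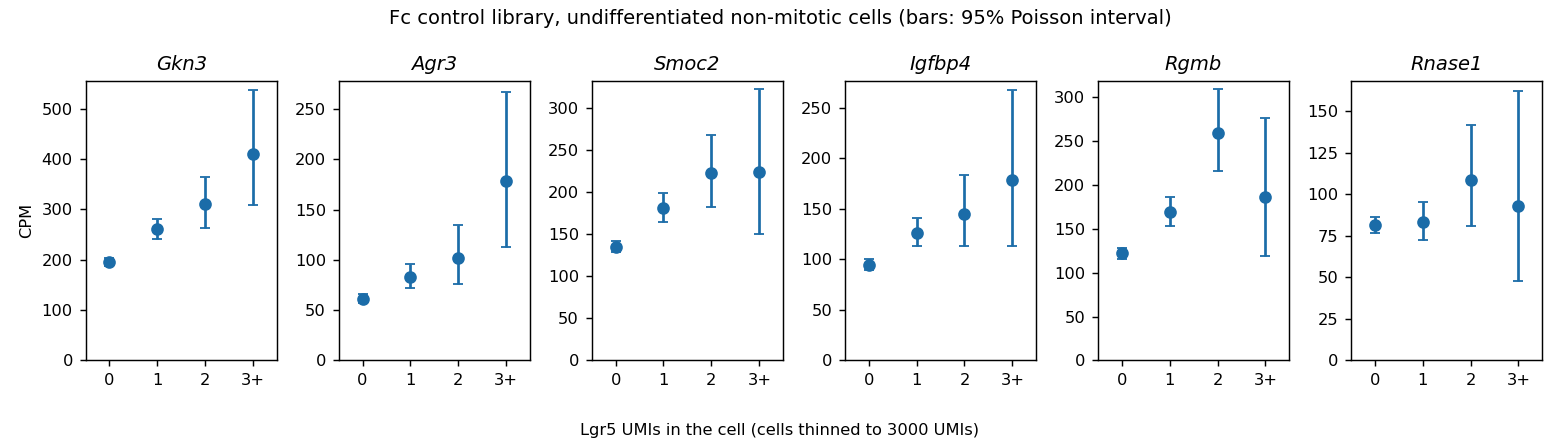
Level of each gene (y axis, CPM from 0) in undifferentiated non-mitotic control cells thinned to 3000 UMIs, by the Lgr5 UMIs in the cell (x axis; 3+ is 3 or more), with 95% Poisson intervals. Gkn3 runs from 195 to 411 CPM, whereas Rnase1 stays between 81.5 and 108.

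The share of cells with a UMI gave the same order of libraries at equal depth. At 3000 UMIs per cell (7536 control and 5036 antagonist cells, with 3727 and 5983 too shallow to use), Gkn3 was found in 32.0% (31.0 to 33.1) of control and 4.45% (3.90 to 5.05) of antagonist cells. For Agr3 the shares were 15.2% and 1.95%, for Igfbp4 22.2% and 4.01%, for Rgmb 28.6% and 6.29%, for Smoc2 32.3% and 16.4%, and for Rnase1 17.0% and 8.18%. Without thinning they were 38.0% and 6.55% for Gkn3, 22.2% and 2.85% for Agr3, 32.1% and 6.19% for Igfbp4, 42.2% and 9.18% for Rgmb, 45.2% and 20.4% for Smoc2, and 21.6% and 11.1% for Rnase1. As a background, control enterocytes (median 7402 UMIs before thinning, against 4478 in all kept cells) had Gkn3 in 4.14%, Agr3 in 0.690%, Igfbp4 in 2.07%, Smoc2 in 6.90%, Rgmb in 2.07% and Rnase1 in 7.59% of cells. In antagonist enterocytes (median 3880.5 UMIs, against 2732) Smoc2 was in 2.87%, Rgmb in 3.83%, Rnase1 in 3.83%, Gkn3 in 0.478% of cells, and Agr3 and Igfbp4 in 0 of 209 cells, which allows a share of up to 1.44% (3 cells) or, by the exact interval, 1.75%. The latter overlaps the interval of Agr3 in all antagonist cells, 1.58% to 2.37%. The interval for Rgmb there, 1.67% to 7.403%, spans the 6.29% found in all antagonist cells, so these thinned shares are not separated. Summed without thinning, Rgmb was at 23.2 CPM (22.0 to 24.5) in all antagonist cells and at 8.60 CPM (4.70 to 14.4) in antagonist enterocytes.

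Non-mitotic undifferentiated cells were also set side by side in bins of equal Olfm4 UMIs after thinning, a comparison chosen after seeing the data. Olfm4 was itself lower in the antagonist library, at 323 against 2325 CPM over all cells, so a bin need not hold like cells of both libraries. With 0 Olfm4 UMIs (193 control and 1579 antagonist cells), Gkn3 was at 32.8 and 13.1 CPM, with 1 to 2 at 103 and 19.8, with 3 to 5 at 169.9 and 55.0, and with 6 to 10 (1772 and 67 cells) at 209.6 and 104 CPM. Gkn3 was therefore 2.51-fold, 5.22-fold, 3.09-fold and 2.01-fold lower in the antagonist library, and each ratio's interval lay below 1. Agr3 was 3.44-fold, 3.31-fold, 5.002-fold and 1.63-fold lower, the last with an interval of the ratio from 0.28 to 1.18.

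Smoc2 came closest to equal levels in these bins. It was at 51.8 CPM in control and 63.5 in antagonist cells without Olfm4, a ratio of 1.23 (0.84 to 1.85), and 1.31-fold, 1.45-fold and 1.62-fold lower in the following bins. Igfbp4 was 1.39-fold lower without Olfm4, with an interval of the ratio from 0.37 to 1.58, and 2.70-fold, 1.62-fold and 3.00-fold lower in the next bins. Rgmb was 1.44-fold lower without Olfm4 (ratio interval 0.38 to 1.37), then 2.63-fold, 2.66-fold and 1.67-fold. Rnase1 had another course. Its control levels went from 171 CPM without Olfm4 over 136 and 66.7 to 62.5. They were higher again with 11 to 20 Olfm4 UMIs (85.4, 77.2 to 94.1) and with 21 or more (115, 88.8 to 145). Antagonist cells were at 21.7, 31.8, 15.7 and 19.9 CPM from the first bin on, and Rnase1 was 7.86-fold lower in the first bin. Bins above 10 Olfm4 UMIs held 18 or fewer antagonist cells and are not compared between libraries.

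**Figure D5:**
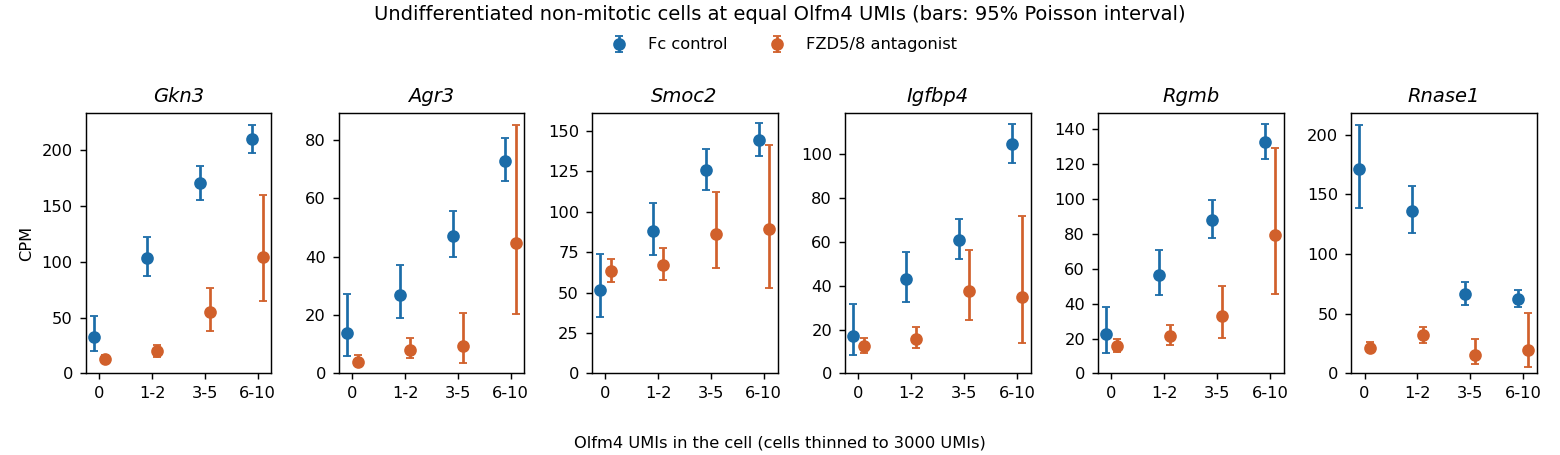
Level of each gene (y axis, CPM from 0, scaled per panel) in undifferentiated non-mitotic cells thinned to 3000 UMIs, by the Olfm4 UMIs in the cell (x axis), in Fc control (blue) and FZD5/8 antagonist (orange) cells, with 95% Poisson intervals. Gkn3 is lower in antagonist cells in all 4 bins, Smoc2 overlaps at 0 Olfm4 UMIs (51.8 and 63.5 CPM), and control Rnase1 is highest there (171 CPM).

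Across the 8 gates of both libraries (16 points that share their libraries and depths), the genes most like each by the Pearson correlation of log2(CPM + 1) were Rgcc (0.94), Prss23 (0.93) and Sesn3 (0.92) for Gkn3, and Sorbs2 (0.96), Rgmb (0.95) and Sox4 (0.94) for Agr3. Those most like Smoc2 were Pck2 (0.98), Hmga1 (0.97) and Clca3b (0.97), and among those most like Igfbp4 were Nr2e3 (0.96) and Car12 (0.95). Rgmb was most like Sorbs2 (0.96), Agr3 (0.95) and Rgcc (0.93). For Rnase1 they were Mmp7 (0.93), the matrilysin of Paneth cells, Nupr1 (0.90) and Cracr2a (0.90). Mmp7 is itself among the markers that set the Paneth gate. Among themselves, the other 5 genes had correlations from 0.51 (Agr3 and Igfbp4) to 0.95 (Agr3 and Rgmb), while those of Rnase1 with them ran from -0.07 to 0.15. Within single control cells at 3000 UMIs, Agr3 was found in 22.0% of undifferentiated non-mitotic cells with Gkn3 and 14.0% of those without, and Rgmb in 38.8% of cells with Igfbp4 and 27.2% of those without. By odds ratio the pair Gkn3 and Smoc2 stood closest to 1 (1.08), with Smoc2 in 35.0% and 33.2%.

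The wider list of crypt stem cell markers shows where the 6 genes lie. All 22 of its genes, none of them among the 6, were lower in the antagonist library, 18 at least 2-fold, with a median log2 ratio of -1.57. Over all genes with 20 or more UMIs, 8.83% were at least 2-fold lower and the median was -0.15. The list was chosen with earlier results of these data known, so its counts are a description. Lgr5 was at 66.2 and 3.09 CPM and Ascl2, a Wnt-dependent stem cell factor, at 67.6 and 6.99 CPM, the lowest ratios among genes with 20 CPM. The highest ratios were those of the Eph receptor Ephb2, at 39.3 and 29.1 CPM, and of Znrf3, a ubiquitin ligase that removes Frizzled, at 22.6 and 13.4 CPM. The log2 ratios of Gkn3 and Agr3 (-3.09 and -3.10) thus lay between those of Ascl2 (-3.27) and Olfm4 (-2.85), and that of Smoc2 (-0.98) between those of Nrn1 (-1.13) and Tgif1 (-0.92).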

How the data were processed

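The matrices the authors deposited hold raw UMI counts for each gene in each barcode. Cell Ranger and the builds GRCm38 and mm10 are named, per the submitters' processing notes, and the software is 3.1.0, per the file headers. No source used here says how cell barcodes were called or which annotation release was used. The labels give 10x Genomics Chromium 3' chemistry on GFP-sorted jejunal cells.

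The 6 members and all lists were chosen with earlier results of these data known, and gate thresholds were set after the data were seen. Gates needed 4 goblet, 4 tuft, 6 enterocyte, 6 Paneth, 3 enteroendocrine or 4 mitotic markers and summed marker UMIs of 200, 50, 200, 2000, 20 or 20 per 10000. Cells passing several differentiated gates were left out, and no doublet caller was run. UMIs were summed per gate and library and divided by the gate's total (CPM). Levels have exact Poisson, ratios exact conditional binomial and shares exact Clopper-Pearson 95% intervals, and 0 counts a floor of 3 counts. A gene entered the comparisons with 20 or more UMIs. For fold calls against all genes, medians and the histogram 0.5 was added to its counts, but not for printed log2 ratios of single genes. Named were the 6 members, family genes with 20 or more UMIs, the 2 highest and 2 lowest ratios with 20 CPM in the stem cell list, the same from each partner list, and the 3 genes most like each member, of which 1 is not reported here. Family genes with fewer UMIs, Irs1, Smad9, Bmp2, Fstl1, Nrn1, Tgif1 and Olfm4 were named after their values were seen. Calculations were checked on simulated counts (Python 3.11.15, numpy 2.4.6, scipy 1.17.1). Alternatives were other cell filters, gates, depths and scalings.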

Additional observations from a re-analysis of the deposited data

Results flagged for a closer look

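Smoc2 was higher in the antagonist library in the Paneth gate, at 1.51 times its control level, and lower in each of the other 7 gates, so its direction differed between gates; this difference was not tested. The interval of that ratio spans 1 (0.92 to 2.47), and it rests on 37 control and 35 antagonist UMIs. The median depth was 49700.5 UMIs per cell in the control and 2801 in the antagonist Paneth gate, and its part in the ratio was not tested.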

How the results depend on the processing

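Over all kept cells each of the 6 genes stayed lower in the antagonist library under the 10 alternatives, which were other cell filters, weightings, scalings, depths and leaving out gates. With gates weighted alike, the log2 ratio was -1.46 for Agr3 and -1.002 for Rnase1. Among ratios at least 2-fold lower, the sign changed for Smoc2 in Lgr5-detected cells with 2 or more Lgr5 UMIs (0.50), Igfbp4 in tuft cells thinned to 3000 UMIs (0.22) and Rgmb in thinned enterocytes (0.89). The 95 Lgr5-detected antagonist cells held 98 Lgr5 UMIs in all, so the setting of 2 or more rests on very few of them. Of smaller differences, the sign also changed for Agr3 in goblet cells with stricter gates (0.48) and with each cell weighted alike (0.20), for Agr3 in enteroendocrine cells with stricter gates (0.05), for Smoc2 in the Paneth gate in 3 of 7 alternatives (down to -0.69) and for Rnase1 in Lgr5-detected over remaining control cells in 3 of 6 (up to 0.11). The number of genes at least 2-fold lower changed from 5 to 3 in Lgr5-detected cells with looser gates and to 2 with 2 or more Lgr5 UMIs, from 5 to 3 with stricter gates and to 2 after thinning in tuft cells, from 2 to 1 after thinning and to 1 with each cell weighted alike in enteroendocrine cells, and from 3 to 0 after thinning in enterocytes. In the Paneth gate it went from 1 to 2 with looser gates, to 3 with cells of several gates kept, and to 4 with each cell weighted alike or, chosen after seeing the data, with the median of all genes set to 0. The number at least 1.5-fold higher in Lgr5-detected control cells went from 2 to 1 after thinning or with looser gates and to 0 with mitotic cells included. For these changes the cause was not tested. Of all genes, 5.84% were 2-fold lower with 100 or more UMIs and 19.3% were 1.5-fold lower. No paired analysis and no leaving out of replicates was possible because each group is 1 library. Depth limits the tuft, enteroendocrine, Paneth and enterocyte gates, where several levels rest on 10 or fewer UMIs.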

Other observations

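Barcodes outside the cell filter, 1409 in the control and 2066 in the antagonist library, held all 6 genes. Gkn3 was at 80.5 and 12.8 CPM there, Agr3 at 39.8 and 5.40, Igfbp4 at 87.9 and 20.9, Rgmb at 189 and 40.5, and Smoc2 at 144 and 60.7 CPM, lower in the antagonist library as in kept cells. Rnase1 was at 91.3 CPM (75.0 to 110.0) and 92.4 CPM (77.6 to 109), with intervals that overlap, against 165 and 58.4 CPM in kept cells.

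Mitotic cells were split by Lgr5 as well. In the control library, 679 mitotic cells with Lgr5 had Gkn3 at 162 CPM and 1440 without had 91.2, and Rgmb was at 172 and 101 CPM. In the antagonist library 51 mitotic cells had Lgr5, with Gkn3 at 18.1 CPM against 16.6 in the 2491 without, and Rgmb at 35.5 against 22.8 CPM.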
